A study of Mus musculus with 47 samples.

Results

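The comparison of PF4 with vehicle in Old mice rested on 22 of the 47 hippocampal RNA-seq libraries, the 10 from Old PF4 mice against the 12 from Old Veh mice. Both groups were C57BL/6J males, aged 17.4 to 20.23 months in Old PF4 and 17.47 to 19.97 months in Old Veh, and each library held the RNA of homogenized hippocampus, so that all of its cell types were measured together. The Old PF4 mice received recombinant mouse PF4 and the Old Veh mice its vehicle, phosphate-buffered saline, and by the methods of the study both were injected intraperitoneally before the days of cognitive training and testing. The other 25 libraries came from Young PF4 mice (n = 12) and Young Veh mice (n = 13), aged 3.75 to 5.26 months, and are given where the values at both ages are set side by side. The question put to these libraries was which hippocampal transcripts differ after systemic PF4 in aged animals.

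PF4, platelet factor 4 or CXCL4, is a small chemokine that platelets store in their alpha granules and release on activation, and it binds strongly to heparan sulfate and other glycosaminoglycans. The hippocampus is a site of memory formation, where excitatory inputs end on dendritic spines. Each spine holds a postsynaptic density, a lattice of scaffold proteins that keeps glutamate receptors beside the kinases and small-GTPase regulators that tune synaptic strength.

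The total count per library, which is the sum of the deposited gene counts, ran from 3454889 to 21112908 (median 9565271) in Old PF4 and from 2748842 to 17061254 (median 7730492) in Old Veh. In all, 1 Old PF4 and 4 Old Veh libraries held under 5000000 counts. The mean total count differed between the groups by less than their spread (two-sided permutation test, p = 0.538), as did the number of genes detected (p = 0.425) and the share of reads from mitochondrially encoded genes (2.00% ± 0.14 against 2.07% ± 0.16, SD, p = 0.321). A transcript length index, the mean log2 level of genes with long transcripts minus that of genes with short ones, was -0.02 ± 0.08 (SD, n = 10) in Old PF4 and 0.04 ± 0.07 (SD, n = 12) in Old Veh (p = 0.0535 in the permutation test, 0.214 after Benjamini-Hochberg adjustment over these 4 measures). The index ran from -0.23 to 0.04 in Old PF4 and from -0.08 to 0.13 in Old Veh, and the lowest of the 22 Old libraries was Old PF4 replicate 8. The 4 Old Veh libraries under 5000000 counts stood at 0.07, 0.12, 0.13 and 0.12, and the deepest, Old Veh replicate 11, at -0.02. In Old PF4 the shallowest library, replicate 1, stood at 0.02 and the deepest, replicate 6, at -0.05. The part of depth in the index was not tested. Choroid plexus carry-over, scored from choroid markers, was spread widely in both groups (0.05 to 5.72 in Old PF4 and -0.03 to 6.13 in Old Veh). The labels name no batch. The library numbers in the titles run from 1 to 12 in Old Veh and from 13 to 23 in Old PF4, and what they stand for is not given, so that any order of handling they follow cannot be told apart from treatment.

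Of 17778 genes tested, 6 differed between Old PF4 and Old Veh at an adjusted p below 0.05 (0.0337% of the genes tested), 4 of them lower and 2 higher with PF4. Plec, Akap11 and Dlg2 fell, and Id2 and Arfgap3 rose. Plec encodes plectin, a giant linker between intermediate filaments, actin and microtubules. Akap11 encodes an anchoring protein that holds protein kinase A and phosphatases near their targets, and Dlg2 encodes PSD-93, a scaffold of the postsynaptic density that binds NMDA receptors and potassium channels. Id2 encodes an inhibitor of basic helix-loop-helix transcription factors, and Arfgap3 a GTPase-activating protein that drives hydrolysis of GTP on Arf1 at the Golgi. At the looser rule of an unadjusted p below 0.05, 463 genes were higher (2.60%) and 639 lower (3.59%), or 6.20% in all, and the median log2 fold change over all genes was 0.01, with 54.0% of genes above 0. These counts were 688 higher and 676 lower with the length index as a covariate. In no gene did the 2 Old groups separate fully (0% of the 17778 had non-overlapping ranges). DESeq2 called 24 of 13856 genes with an adjusted p (0.173%), 5 higher and 19 lower, against 2 and 4 here.

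Plec (ENSMUSG00000022565, chromosome 15, bases 76170974 to 76232574, minus strand, GRCm38) lay between 79.4 and 105 CPM (counts scaled to 1000000 per library) in Old PF4, with a median of 93.6. In Old Veh it lay between 104 and 126, with a median of 113. In 9 of the 10 Old PF4 libraries Plec was below the lowest Old Veh library. The log2 fold change was -0.25 (SE 0.05, edgeR quasi-likelihood test with Benjamini-Hochberg adjustment, adjusted p = 0.0347), or a fold of 0.840. The Young medians were 92.8 in Young Veh and 87.5 in Young PF4.

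Akap11 (ENSMUSG00000022016, chromosome 14, bases 78492246 to 78536808, minus strand) had a lowest value of 299 CPM, a median of 319 and a highest of 340 in Old PF4. The corresponding Old Veh values were 337, 358 and 388, so that 9 of 10 Old PF4 libraries were again below all 12 Old Veh libraries. The fold change was small and its error smaller (log2 fold change -0.17, SE 0.03, edgeR adjusted p = 0.0347), which corresponds to a level 11.1% lower. Young Veh and Young PF4 mice had medians of 282 and 278.

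Dlg2 (ENSMUSG00000052572, chromosome 7, bases 90476672 to 92449247, plus strand) ranged from 136 to 188 CPM around a median of 164 in Old PF4. It ranged from 159 to 233 around a median of 199 in Old Veh. Here the overlap was wide: 3 Old PF4 libraries were below the lowest Old Veh library, and all 10 were below the Old Veh median. The log2 fold change was -0.29 (SE 0.06, edgeR adjusted p = 0.0367). Genes annotated inside the long Dlg2 locus received more reads than Dlg2 itself, and the counts, which ignore strand, do not separate spliced Dlg2 from intronic models of the same locus. The Young medians of Dlg2 were 151 and 157.

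Id2 (ENSMUSG00000020644, chromosome 12, bases 25093799 to 25097140, minus strand) ran from 148 to 170 CPM with a median of 157 in Old PF4, and from 115 to 153 with a median of 134 in Old Veh. In 7 Old PF4 libraries Id2 was above every Old Veh library. The log2 fold change was 0.25 (SE 0.05, edgeR adjusted p = 0.0347), a level 18.8% higher. Young Veh and Young PF4 had medians of 149 and 150.

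Arfgap3 (ENSMUSG00000054277, chromosome 15, bases 83299739 to 83350247, minus strand) was the least abundant of these genes, at 19.7 to 25.7 CPM in Old PF4 (median 22.9) and 16.4 to 22.003 in Old Veh (median 19.5). Again 7 Old PF4 libraries were above all Old Veh libraries, and the log2 fold change was 0.25 (SE 0.05, edgeR adjusted p = 0.0367). The Young medians were 22.2 and 21.8.

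**Figure D1:**
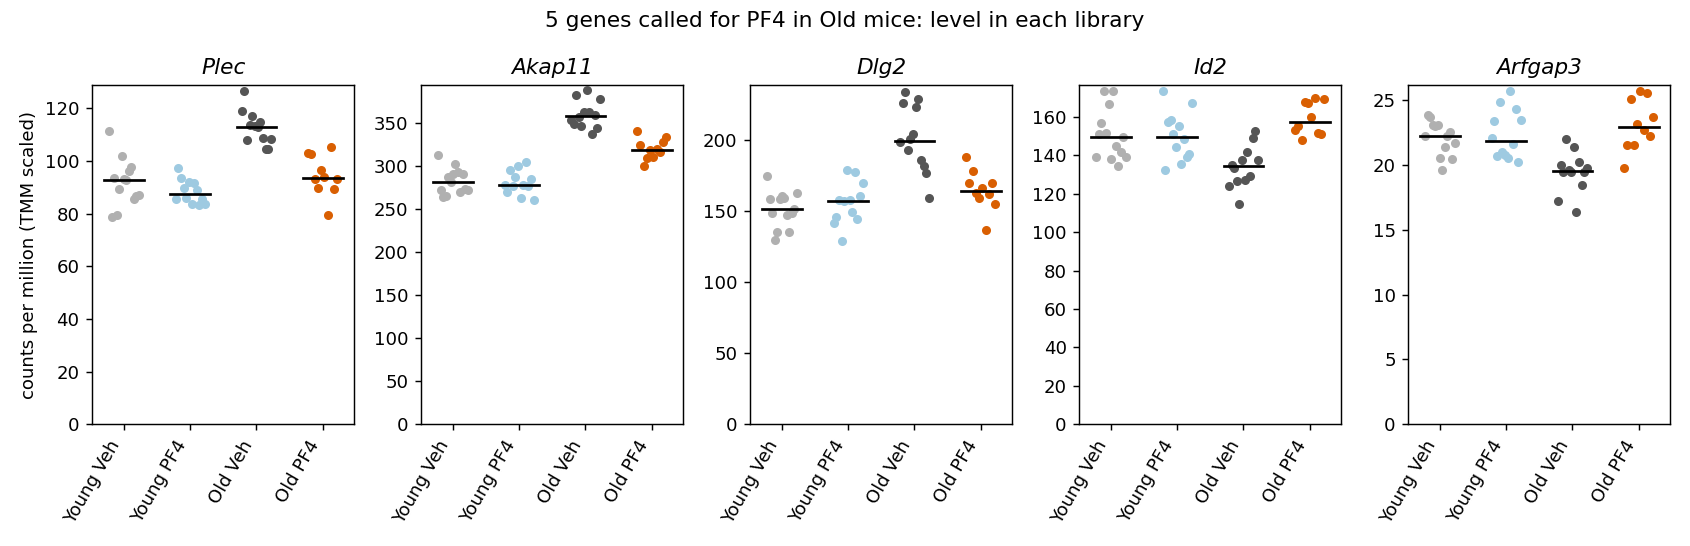
Level of 5 genes called for PF4 in Old mice in each of the 47 libraries, in CPM after TMM scaling (1 point per library, black bar at the group median, each axis starting at 0). Plec, Akap11 and Dlg2 sat lower in Old PF4 than in Old Veh, with 9, 9 and 3 Old PF4 libraries below every Old Veh library, and Id2 and Arfgap3 sat higher, with 7 libraries each above every Old Veh library.

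The calls were narrow. All 6 kept their sign when any of the 22 Old libraries was left out in turn, but the number of genes called then ran from 0 to 20. None was called without Old PF4 replicates 5, 6, 7 or 8, or without Old Veh replicates 1, 2, 3, 5 or 7, and 20 were called without Old Veh replicate 11. With the length index as a covariate no gene was called, and the adjusted p of each of the 6 lay between 0.0647 and 0.0747. The log2 fold changes were then -0.23 for Plec, -0.16 for Akap11, -0.22 for Dlg2, 0.22 for Id2 and 0.25 for Arfgap3.

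The 30 genes of smallest p that carry an official symbol held 22 that were lower and 8 that were higher in Old PF4, with absolute log2 fold changes of 0.15 to 0.52. Their longest annotated transcripts had a median of 7073 bases, against 3150 over all genes tested. Those of the 22 lower genes had a median of 8941 bases and those of the 8 higher genes 2414. The values given next for single genes did not pass the adjusted test.

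Among the lower genes, Kalrn, which encodes kalirin, a guanine exchange factor of dendritic spines, had a log2 fold change of -0.22 (edgeR adjusted p = 0.0679). Enah and Raph1, both actin-tip proteins of the Ena/VASP pathway, stood at -0.15 and -0.23 (0.203 for both), and Ripor1 at -0.17 (0.214). Kalrn ran from 275 to 345 CPM in Old PF4 (median 322) and from 329 to 427 in Old Veh (median 368), and 6 Old PF4 libraries were below all of Old Veh.

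Sec16a, which marks the ER exit sites where COPII coats form, had a log2 fold change of -0.25 (adjusted p = 0.0738). Tmem106b, a lysosomal membrane protein, had one of -0.22 (0.0833), and Pde7b, a cyclic AMP phosphodiesterase, one of -0.33 (0.0833). The largest decrease among the 30 was that of Zdhhc9, a palmitoyltransferase, at -0.49 (SE 0.11, edgeR adjusted p = 0.104), with 13.6 to 23.5 CPM in Old PF4 (median 19.4) and 21.7 to 36.1 in Old Veh (median 26.9). In 8 of the 10 Old PF4 libraries Zdhhc9 was below every Old Veh library.

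Further lower genes were the zinc finger genes Zfp106 (-0.16), Zfp445 (-0.17), Hivep2 (-0.15) and Rreb1 (-0.31), the Polycomb subunit Phc3 (-0.27), the corepressor Rere (-0.26) and the Integrator-related Ints6l (-0.23). The ubiquitin ligase gene Hectd4 (-0.17) and the volume-regulated anion channel subunit gene Lrrc8c (-0.29) completed the lower genes that are named. Their edgeR adjusted p ran from 0.0567 for Zfp106 to 0.213 for Phc3, Rere and Rreb1.

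Among the higher genes, Rbm45, an RNA-binding protein, had the largest log2 fold change of the 30 (0.52, SE 0.13, edgeR adjusted p = 0.152) at a low level of 5.78 to 8.92 CPM in Old PF4 (median 7.40) against 3.44 to 7.35 in Old Veh (median 5.40). Skp1a, the adaptor of SCF ubiquitin ligases, stood at 0.19 (0.157) and Retreg1, an ER-phagy receptor, at 0.17 (0.213). Pdia4, a disulfide isomerase of the ER lumen, had a value of 0.30 (0.213), Pcsk6, a proprotein convertase, 0.31 (0.203), and Fezf2, a transcription factor of deep-layer cortical projection neurons, 0.33 (0.171). In 7 Old PF4 libraries Retreg1 was above all Old Veh libraries.

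In Young mice the same contrast called no gene (0%), with 86 higher (0.484%) and 127 lower (0.714%) at an unadjusted p below 0.05, or 1.20% in all, by edgeR. The smallest adjusted p in Young mice was 1.00, and DESeq2 also called 0 genes. The test of the difference between the ages called no gene either (0%), with 318 genes more positive (1.79%) and 389 more negative (2.19%) in Old mice at an unadjusted p below 0.05, or 3.98% in all, and a smallest adjusted p of 0.762. The effects of PF4 on these genes were therefore not shown to differ between Old and Young mice. Among the called genes the estimates stood side by side at -0.25 (SE 0.05) in Old and -0.05 (SE 0.04) in Young for Plec and at -0.17 (SE 0.03) and -0.01 (SE 0.03) for Akap11. For Dlg2 they were -0.29 (SE 0.06) and 0.04 (SE 0.05), for Id2 0.25 (SE 0.05) and -0.00 (SE 0.05), and for Arfgap3 0.25 (SE 0.05) and 0.00 (SE 0.05).

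**Figure D2:**
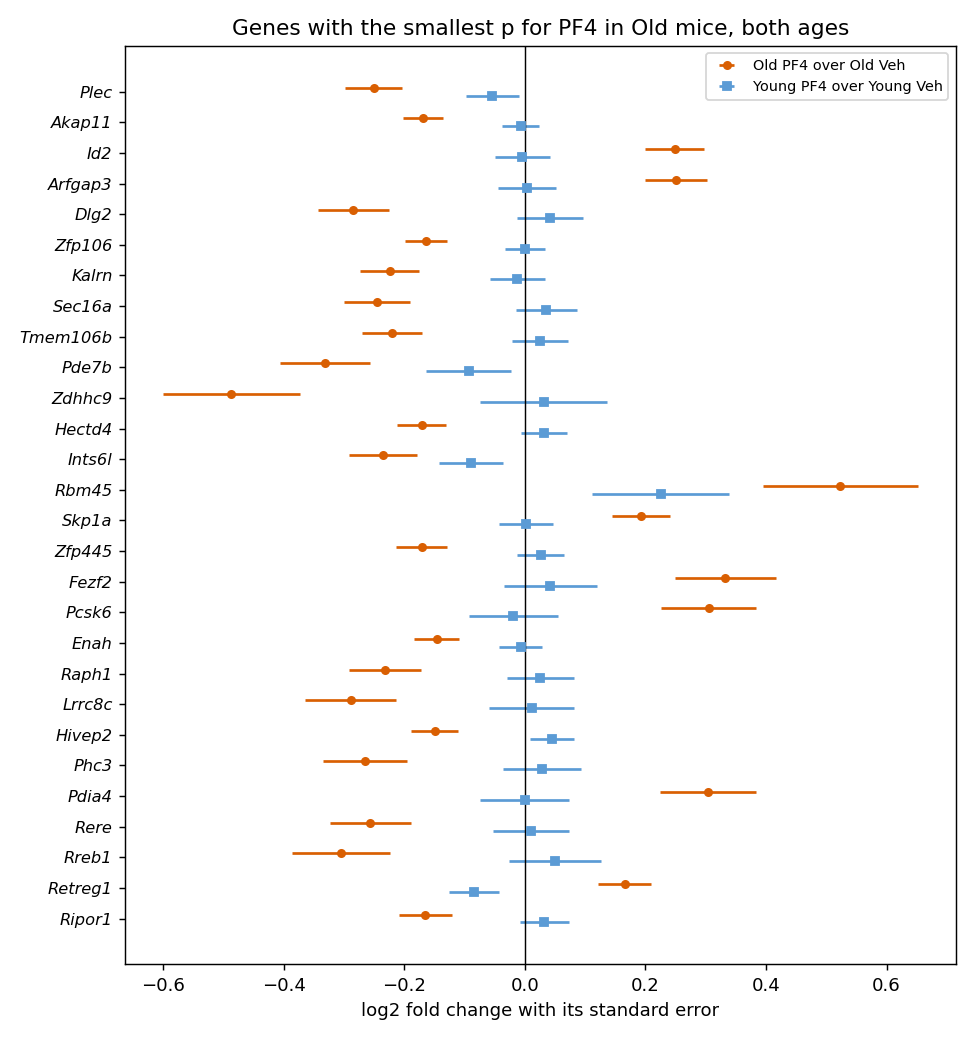
Log2 fold change of PF4 over vehicle, with its standard error, for 28 of the 30 genes of smallest p in Old mice (circles) and the same genes in Young mice (squares). The Old values were chosen for their small p and lie between 0.15 and 0.52 from 0, while the Young values lie within 0.23 of 0, and the difference between ages passed the adjusted test for none of them.

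Gene families and pathways were then read as lists, by the number of tested members at an unadjusted p below 0.05 in each direction and by the median log2 fold change, beside the 2.60% higher, 3.59% lower and median of 0.01 over all genes. Of 81 lists, 80 had a tested member, and 19 held at least 3 members in 1 direction at a share of at least 2 times that over all genes. The larger share was among lower genes in 10 of these lists and among higher genes in 9. These descriptions were sensitive to single libraries: in 17 of the 19 lists the median moved by over 1.5 times or turned sign when some library was left out, and in 13 the count then fell below 3. The count fell below 3 in 9 lists, and the median turned sign in 8, with the length index as a covariate. The lists were chosen with earlier results of these data known, and several counts include a called gene. Among these are Dlg2 in postsynaptic scaffolds, Akap11 in A-kinase anchors, Arfgap3 in Arf regulators, Id2 in its family and Plec in plakins. No list was tested as a set, and fewer cells of a type and less RNA per cell cannot be told apart in whole tissue.

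**Figure D3:**
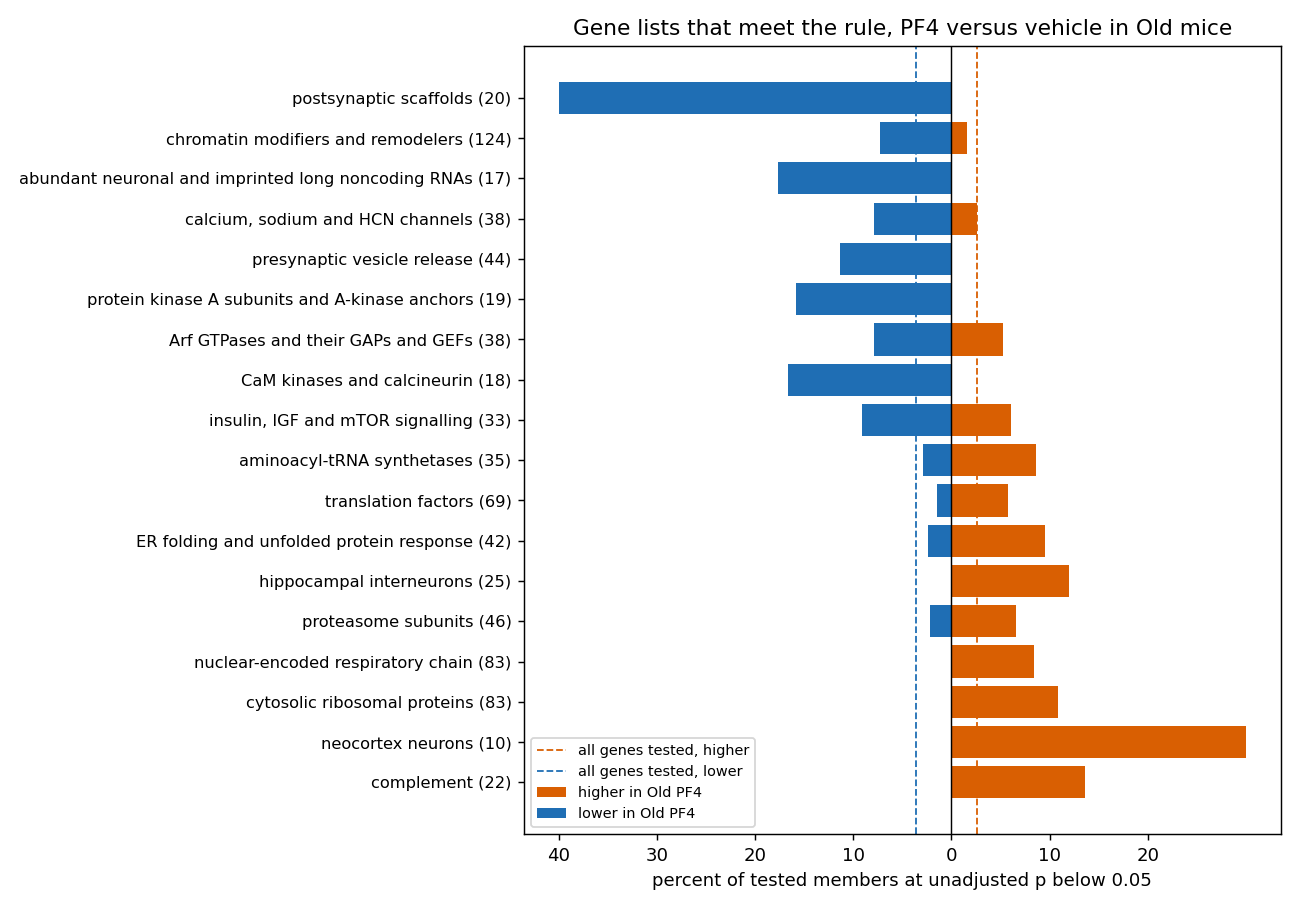
Percent of tested members of each of 18 of the 19 gene lists at an unadjusted p below 0.05, lower in Old PF4 to the left and higher to the right (number of tested members in brackets), with the shares over all 17778 genes as dashed lines at 3.59% and 2.60%. Postsynaptic scaffolds stand furthest to the left at 8 of 20 genes, and neocortex neuron markers furthest to the right at 3 of 10.

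Postsynaptic scaffolds had the largest share of members past the looser rule among the 19 lists. Of 20 tested members, 8 were lower and none was higher, and the median log2 fold change was -0.06, with 5 members above 0. The members described here are Dlg2, Dlgap2 (-0.18, unadjusted p = 0.00684), a partner that joins PSD-95 proteins to deeper scaffolds of the density, and Cnksr2 (-0.13, unadjusted p = 0.0102), a synaptic scaffold of the Ras pathway. Dlgap2 ran from 70.2 to 115 CPM in Old PF4 (median 95.1) and from 88.9 to 121 in Old Veh (median 103). The groups overlapped, with 3 Old PF4 libraries below the lowest Old Veh library. Without Old PF4 replicate 8, whose mean score over the list was -0.33 against -0.13 in the lowest Old Veh library, 4 members were lower, and with the length index as a covariate 5 were, with a median of -0.03. The median ran from -0.10 (without Old PF4 replicate 3) to -0.03 (without Old Veh replicate 1). The same 20 genes had a median of 0.01 in Young mice.

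In the presynaptic release list, 5 of 44 genes (11.4%) were lower and none higher, led by Cplx2 (-0.15, unadjusted p = 0.0166), the complexin that clamps and triggers vesicle fusion. The large active-zone scaffold Bsn (-0.21, p = 0.0193), the vesicle glycoprotein Sv2c (-0.22, p = 0.0309) and the active-zone protein Erc2 (-0.12, p = 0.0344) followed. The list median was -0.02, and 0.0050 with the length covariate, and 1 member was lower without Old Veh replicate 1. Cplx2 had 716 to 926 CPM in Old PF4 (median 836) and 817 to 1082 in Old Veh (median 906).

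Among calcium, sodium and HCN channel genes, 3 of 38 (7.89%) were lower and 1 higher, with a median of -0.02. The lower ones were Cacna1c (-0.24, unadjusted p = 0.00658), the pore of the main L-type calcium channel of hippocampal neurons, the sodium channel gene Scn3a (-0.12, p = 0.0201) and the T-type channel gene Cacna1h (-0.19, p = 0.0371). Cacng4, which encodes an AMPA receptor auxiliary subunit, had a value of 0.20 (p = 0.0288). Cacna1c ran from 29.1 to 47.4 CPM in Old PF4 (median 43.4) and from 38.5 to 64.9 in Old Veh (median 48.6), with all 10 Old PF4 libraries below the Old Veh median. With the length index as a covariate the list turned, with 2 higher, 1 lower and a median of 0.01.

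Glutamate receptor subunit genes were not past the rule for a list, with 2 of 16 lower and a median of 0.00. Those 2 were the NMDA receptor subunits Grin2a (-0.17, unadjusted p = 0.0312) and Grin2b (-0.17, unadjusted p = 0.0126). Grin2b had 270 to 478 CPM in Old PF4 (median 371) and 350 to 502 in Old Veh (median 422), and 9 of the 10 Old PF4 libraries were below the Old Veh median. With the length index as a covariate, 3 subunit genes were higher, 1 was lower and the median was 0.04. The 14 tested GABA-A receptor subunit genes also included 2 lower members and had a median of -0.05. Over single omissions 1 to 3 of them were lower. Their median ran from -0.09 (without Old PF4 replicate 8) to -0.02 (without Old PF4 replicate 3).

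Kinase anchoring and calcium signalling lists each held 3 lower members. Of 19 protein kinase A subunit and A-kinase anchor genes, 3 (15.8%) were lower: Akap11, Akap13 (-0.15, unadjusted p = 0.0109), and the mitochondrial anchor Akap10 (-0.13, p = 0.0225). The kinase subunits themselves were not among them, and the median over the list was -0.02. Akap11 is a called gene, and without it the list would not hold 3 lower members. The list held 2 lower members without Old PF4 replicate 3 and 5 without Old Veh replicate 10, and with the length covariate 3 were lower and 2 higher. Of 18 CaM kinase and calcineurin genes, 3 (16.7%) were lower, namely Camk1d (-0.15, unadjusted p = 0.00376), Camkk1 (-0.10, p = 0.0407) and Camk2a (-0.20, p = 0.0412), the abundant kinase of the postsynaptic density. The median of the latter list was 0.00, and without Old PF4 replicate 9 it held 1 lower member. Camk2a ran from 1299 to 2703 CPM in Old PF4 (median 2195) and from 2141 to 3391 in Old Veh (median 2453), and Old PF4 replicate 8 held the lowest value.

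Regulators of the Arf GTPases, which direct membrane traffic, lay on both sides. Of 38 Arf GTPases, GAPs and GEFs, 3 (7.89%) were lower and 2 (5.26%) higher, with a median of -0.00. The exchange factors Arfgef3 (-0.12, unadjusted p = 0.00684) and Iqsec2 (-0.24, p = 0.0119), a postsynaptic Arf6 activator, were lower, while Arfgap3 rose and Arf6 itself had a value of 0.15 (p = 0.0173). With the length index as a covariate 3 members were higher and 2 lower, with a median of 0.01. Without the libraries under 5000000 counts 2 were higher and 2 lower, with a median of -0.03.

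Of 124 tested genes for chromatin modifiers and remodelers, 9 were lower (7.26%) and 2 higher, and the median was -0.04, with 30.6% of members above 0. They included Ash1l (-0.14, unadjusted p = 0.0108) and Setd5 (-0.17, p = 0.0143), SET-domain proteins that act on histone tails, and the histone acetyltransferase gene Kat6b (-0.19, p = 0.0154). Kat6b ran from 43.6 to 68.8 CPM in Old PF4 (median 56.8) and from 48.8 to 75.7 in Old Veh (median 68.0). The list score, the mean over members of log2 CPM centred on each gene, was -0.09, -0.01 and 0.03 (lowest, median and highest) in Old PF4 and -0.03, 0.04 and 0.08 in Old Veh. All 10 Old PF4 libraries were below the Old Veh median, although the groups overlapped. Leaving out 1 library at a time gave 6 (without Old PF4 replicate 6) to 15 (without Old Veh replicate 11) lower members and list medians of -0.05 to -0.03. The length covariate left 7 lower and 3 higher, with a median of -0.02.

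Abundant noncoding RNAs of neurons lay in the same direction. Of 17 tested, 3 (17.6%) were lower, namely Mir124a-1hg (-0.23, unadjusted p = 0.00543), the host transcript of a neuronal microRNA, and the imprinted Snhg14 (-0.17, p = 0.0135) and Kcnq1ot1 (-0.13, p = 0.0412). The median was -0.03. Snhg14 shares its locus with other annotated transcripts, which together received 644% as many reads as Snhg14, so its count is uncertain. In the fit with the length covariate 1 member of the list was lower and the median was -0.01. In insulin, IGF and mTOR signalling, 3 of 33 genes (9.09%) were lower and 2 (6.06%) higher, with a median of 0.01. Among the lower ones, Igf2r (-0.22, unadjusted p = 0.00306) encodes a receptor that clears IGF2 and sorts lysosomal enzymes. The higher ones were Deptor (0.33, p = 0.00471), an inhibitor of mTOR, and Akt1 (0.17, p = 0.0273). With the length covariate 2 members of this list were lower and 2 higher. Its median ran from -0.0063 (without Old PF4 replicate 10) to 0.03 (without Old Veh replicate 9).

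Lists of protein synthesis stood on the other side. Of 83 cytosolic ribosomal protein genes, 9 (10.8%) were higher and none lower, with a median log2 fold change of 0.08 and 80.7% of members above 0. They included Rpl14 (0.16, unadjusted p = 0.00854), Rps26 (0.30, p = 0.0109) and Rpl38 (0.25, p = 0.0128), all structural subunits of the ribosome. Rpl14 had 42.3 to 62.1 CPM in Old PF4 (median 47.1) and 37.4 to 51.5 in Old Veh (median 42.3), and all 10 Old PF4 libraries were above the Old Veh median. Ribosomal protein genes have many processed pseudogenes that share their sequence, and how such reads were assigned is not given in the sources used here. With the length index as a covariate the median was 0.06 and 7 members were higher, without Old PF4 replicate 11 it was 3 members, and without Old Veh replicate 1 it was 17.

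Translation factors and aminoacyl-tRNA synthetases were higher in a few members. Of 69 translation factor genes, 4 (5.80%) were higher and 1 lower, with a median of 0.03. The higher ones were Pabpc1 (0.16, unadjusted p = 0.00734), which binds the poly(A) tail, Eef1d (0.10, p = 0.0245), Eif3d (0.10, p = 0.0313) and Eef2kmt (0.13, p = 0.0353), which methylates an elongation factor and whose locus overlaps other annotated genes that took 241% as many reads. Of 35 synthetase genes, 3 (8.57%) were higher and 1 lower, with a median of 0.03. The higher ones were the cytosolic Mars (0.10, p = 0.0178), Aars (0.08, p = 0.0354) and Sars (0.09, p = 0.0484), and the mitochondrial Hars2 was lower (-0.10, p = 0.0388), though the genes that overlap it took 287% as many reads. No synthetase gene was past this rule without the libraries under 5000000 counts or with the length covariate, and with that covariate the synthetase median was -0.01. The translation factor median was then -0.0049, with 7 members higher and 2 lower. Without Old PF4 replicate 11, 1 translation factor gene was higher, and without Old PF4 replicate 8 their median was -0.0034, with 2 lower. No synthetase gene was higher without Old PF4 replicate 7.

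The ER folding and unfolded protein response list held 4 higher genes of 42 (9.52%) and 1 lower, with a median of 0.04 and 73.8% of members above 0. Beside Pdia4, these were the ER reductase gene Dnajc10 (0.09, unadjusted p = 0.0197), the Hsp110-type chaperone gene Hyou1 (0.34, p = 0.0227) and the prolyl hydroxylase and isomerase subunit gene P4hb (0.11, p = 0.0308). Pdia4 ran from 55.6 to 69.8 CPM in Old PF4 (median 59.9) and from 35.7 to 65.0 in Old Veh (median 48.03), and all 10 Old PF4 libraries were above the Old Veh median. Hyou1 spread from 12.8 to 46.8 in Old PF4 (median 31.4) and from 17.5 to 30.1 in Old Veh (median 24.1). The stress sensor Atf6, a transcription factor that acts on ER stress response elements, was lower (-0.13, p = 0.0432). Without Old PF4 replicate 8 the list median was 0.01, and with the length covariate it was -0.01 with 4 members higher.

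The element that ATF6 binds with NF-Y was looked for in the RefSeq promoter windows of the list, 250 bases before to 50 after each start on GRCm38.p6, as the letters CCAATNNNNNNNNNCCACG on either strand. Windows were found for 35 of the 42 genes, of which 9 (25.7%) held a match, against 0.137% of 27025 genes with a window. None of those 9 was past an unadjusted p of 0.05, and their median log2 fold change was 0.01. The 26 genes with a window and no match included 3 of the 4 higher members and had a median of 0.04. The cyclic AMP response element, TGACGTCA, which is a palindrome, was in 2.03% of genes with a window and in 0 of the 35. A match is a description of the letters in the window and no match says only that they are not in it. The windows of Hspa5 (BiP, the chief ER chaperone; chr2:34771840-34772139, plus strand) and Hsp90b1 (GRP94; chr10:86705395-86705694, minus strand) are shown as examples with the element, in capitals, and that of Pdia4 (chr6:47813463-47813762, minus strand) as the leading member without it.
Hspa5: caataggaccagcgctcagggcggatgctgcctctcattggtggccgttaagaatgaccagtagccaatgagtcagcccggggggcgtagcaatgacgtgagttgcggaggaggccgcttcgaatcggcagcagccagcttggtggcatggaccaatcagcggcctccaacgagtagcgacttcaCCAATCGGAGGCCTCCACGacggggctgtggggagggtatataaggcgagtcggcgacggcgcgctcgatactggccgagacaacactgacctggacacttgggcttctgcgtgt
Hsp90b1: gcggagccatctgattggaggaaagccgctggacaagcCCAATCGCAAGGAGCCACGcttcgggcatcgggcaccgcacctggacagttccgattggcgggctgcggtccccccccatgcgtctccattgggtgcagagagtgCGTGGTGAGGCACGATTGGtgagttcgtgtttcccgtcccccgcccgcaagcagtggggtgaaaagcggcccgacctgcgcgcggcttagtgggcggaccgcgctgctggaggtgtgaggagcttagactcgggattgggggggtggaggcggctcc
Pdia4: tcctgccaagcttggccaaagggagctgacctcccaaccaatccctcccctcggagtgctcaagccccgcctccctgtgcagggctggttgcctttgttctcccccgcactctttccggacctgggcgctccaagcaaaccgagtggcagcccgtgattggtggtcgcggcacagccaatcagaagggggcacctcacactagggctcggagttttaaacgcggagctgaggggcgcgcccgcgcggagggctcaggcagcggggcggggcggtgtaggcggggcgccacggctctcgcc

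The first base of the element lay 65 bases before the start of Hspa5, and 212 and 107 bases before that of Hsp90b1, whose second match is on the opposite strand. Hspa5 itself had a log2 fold change of 0.06 (unadjusted p = 0.549) and Hsp90b1 one of 0.02 (p = 0.686).

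Proteasome subunits were higher in 3 of 46 members (6.52%) and lower in 1, with a median of 0.04 and 82.6% of members above 0. The ATPase subunit Psmc1 (0.23, unadjusted p = 0.00958), the core subunit Psma7 (0.19, p = 0.044) and the base subunit Psmd1 (0.09, p = 0.0206) were higher, and the activator gene Psme4 was lower (-0.19, p = 0.00286). Psmc1 had 98.0 to 195 CPM in Old PF4 (median 112) and 87.7 to 122 in Old Veh (median 100), and the highest value was that of Old PF4 replicate 8. Without that replicate the list median was -0.00, without the libraries under 5000000 counts no member was higher, and with the length covariate the median was -0.03.

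Of 83 nuclear genes of the respiratory chain, 7 (8.43%) were higher and none lower, with a median of 0.07 and 92.8% of members above 0. They included the cytochrome oxidase subunits Cox7c (0.24, unadjusted p = 0.00594) and Cox6a2 (0.41, p = 0.0075), the complex I subunit Ndufc1 (0.24, p = 0.0208) and the ATP synthase component Atp5md (0.18, p = 0.0216). Cox7c had 8.82 to 12.7 CPM in Old PF4 (median 10.8) and 6.06 to 11.5 in Old Veh (median 8.78). All 10 Old PF4 libraries were above its Old Veh median. The 8 tested mitochondrially encoded genes stood apart, with none past the looser rule and a median of -0.04. With the length index as a covariate the nuclear list had a median of 0.01 and 2 higher members. Without Old PF4 replicate 5 it had 3 higher members and without Old Veh replicate 1 it had 14, and the part of transcript length in the list's values was not tested further. The 78 mitochondrial ribosomal protein genes, 4 of them higher, went from a median of 0.07 to -0.01 with the same covariate, when none was higher and 3 were lower. None of them was higher without Old PF4 replicate 8, when 1 was lower and the median was 0.01.

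**Figure D4:**
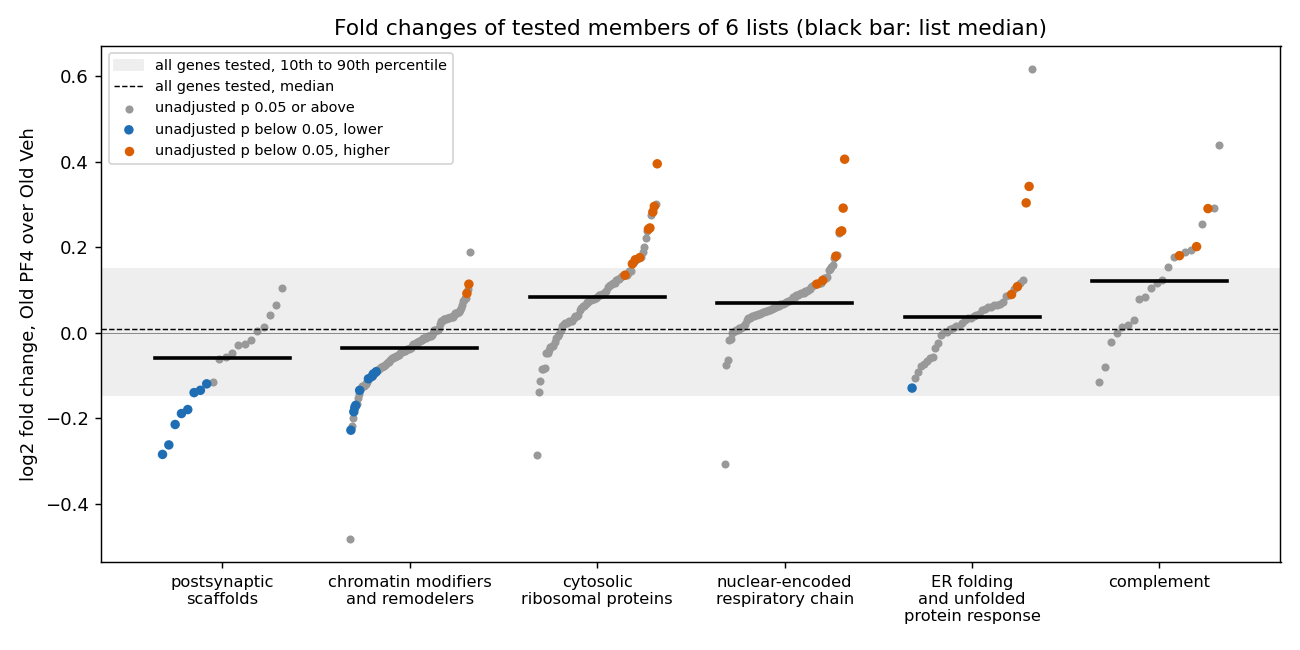
Log2 fold change of the tested members of 6 gene lists, ordered within each list (blue and orange points at an unadjusted p below 0.05, black bar at the list median, grey band from the 10th to the 90th percentile of all genes, -0.15 to 0.15). Most members lie inside the band, with list medians of -0.06, -0.04, 0.08, 0.07, 0.04 and 0.12 from left to right.

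Several of the lists differed in transcript length. By the longest transcript of each gene, the median length was 6274 bases for postsynaptic scaffolds and 6122 for chromatin modifiers, and 1094 for cytosolic ribosomal proteins and 1026 for the nuclear respiratory chain. The neocortex neuron markers, whose larger share was higher, had a median of 5171 bases. Over all genes, 366 of the 4415 with the longest transcripts (at least 4595 bases) were lower (8.29%) and 62 higher (1.40%). Among the shortest (at most 2006 bases), 75 of 4420 were lower (1.70%) and 150 higher (3.39%). The median log2 fold change went from 0.04 in the shortest of 4 length classes through 0.02 and 0.01 to -0.02 in the longest. In Young mice the corresponding medians were -0.01, -0.01, -0.01 and 0.00. With the length index as a covariate, 301 of the longest class were lower and 193 higher in Old PF4, and 122 and 121 of the shortest. The difference of the length index between the Old groups did not pass its test, and its part in these lists was not tested beyond the covariate.

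A class of unspliced or poorly supported gene models, labelled TEC in GENCODE and chosen here after its values were seen, was lower in 86 of 1152 members (7.47%) and higher in 7, with a median of -0.08 in Old mice and -0.01 in Young mice. With the length covariate 68 were lower and 14 higher, with a median of -0.04. Protein-coding genes were lower in 476 of 14366 (3.31%) and higher in 417 (2.90%).

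**Figure D5:**
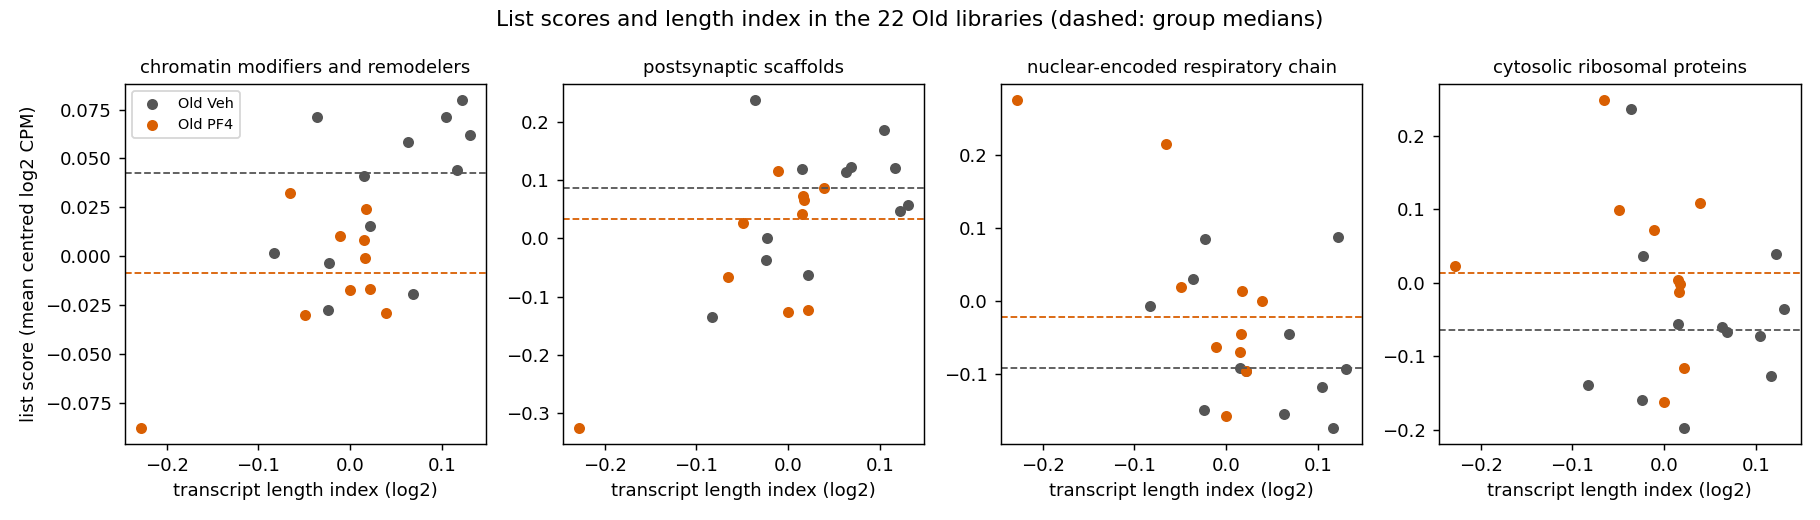
List score against transcript length index for the 22 Old libraries in 4 gene lists (orange, 10 Old PF4 libraries; grey, 12 Old Veh libraries; dashed lines, group medians). Old PF4 replicate 8 lies at the far left at an index of -0.23 and holds the lowest scores of postsynaptic scaffolds (-0.33) and chromatin modifiers (-0.09) and the highest score of the nuclear respiratory chain (0.28).

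Complement genes had the highest median of the 19 lists, though not with the choroid score as a covariate (complement 0.11, neocortex markers 0.13). Of 22 tested, 3 (13.6%) were higher and none lower, with a median of 0.12 and 81.8% of members above 0, against a median of -0.02 in Young mice. C1qa (0.18, unadjusted p = 0.0242) and C1qc (0.20, p = 0.0271) encode chains of C1q, the microglial starter of the classical pathway, and Masp1 (0.29, p = 0.0397) a protease of the lectin pathway, whose overlapping genes took 79.1% as many reads. C1qb, the remaining C1q chain, had a value of 0.10 (p = 0.134). C1qc ran from 34.3 to 58.6 CPM in Old PF4 (median 39.5) and from 30.9 to 48.8 in Old Veh (median 35.5), and 9 of 10 Old PF4 libraries were above the Old Veh median. Masp1 was counted at 3.14 to 6.59 CPM in the Old libraries. Without Old PF4 replicate 3 only 1 member of the list was higher, with a median of 0.07, and without Old Veh replicate 10 the median was 0.20.

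Microglial markers were given beside these values because C1q is made by microglia. The 21 homeostatic markers, which include the C1q genes, had a median of 0.09, and their 2 higher members were C1qa and C1qc. The 19 tested activation markers had a median of 0.10, with none higher and 1 lower. Over single omissions the activation median ran from 0.07 (without Old Veh replicate 11) to 0.16 (without Old Veh replicate 10). The homeostatic list held no higher member and a median of 0.05 without Old PF4 replicate 3, 5 higher members without Old PF4 replicate 11, and a median of 0.04 without the libraries under 5000000 counts. The defining markers P2ry12 and Tmem119 stood at 0.05 (unadjusted p = 0.456) and 0.09 (p = 0.25). Tmem119 ran from 24.7 to 37.7 CPM in Old PF4 (median 34.1) and from 23.8 to 37.6 in Old Veh (median 29.2). Whether the C1q values follow the amount of microglial RNA was not tested.

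Neuronal subtype markers differed in direction. Of 25 interneuron markers, 3 (12.0%) were higher and none lower, with a median of 0.04. They were Pvalb (0.22, unadjusted p = 0.0376), the calcium buffer of fast-spiking basket cells, the neuropeptide gene Sst (0.16, p = 0.0441) and Crh (0.45, p = 0.0463), which was counted at 0.37 to 3.23 CPM. Sst had 142 to 227 CPM in Old PF4 (median 179) and 129 to 193 in Old Veh (median 163), and 4 Old PF4 libraries were above all of Old Veh. No member of this list was higher at the looser rule without Old PF4 replicate 11. Its members lay on both sides of 0. The share above 0 was closer to that over all genes than to those given for the ribosomal, ER folding or complement lists.

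Markers of neocortex neurons, a tissue that borders the dissected hippocampus, were higher in 3 of 10 members, with a median of 0.11. These were Fezf2, Deptor and Etv1 (0.14, unadjusted p = 0.0213), and Fezf2 ran from 39.8 to 55.1 CPM in Old PF4 (median 47.7) and from 19.3 to 49.3 in Old Veh (median 39.03). The mean score over the list ran from -0.12 to 0.21 in Old PF4 and from -0.45 to 0.12 in Old Veh, where the lowest library was Old Veh replicate 1, and without it the list median was 0.06. Members of the neocortex list also lay on both sides of 0, with the same share above 0 as the interneuron markers. The 16 dentate granule neuron markers had a median of -0.11, with 2 lower and none higher, and their defining transcription factor Prox1 stood at -0.14 (p = 0.0652). The dentate list median was -0.06 without Old Veh replicate 1, which had the highest Old Veh score for it, and 5 members were lower without Old PF4 replicate 6 or without the libraries under 5000000 counts. The part of the dissection in these values was not tested. Markers of immature granule neurons had a median of 0.08 (1 of 17 higher), and those of CA1 and CA3 pyramidal neurons one of -0.01. The former was 0.05 without Old PF4 replicate 8. The latter ran from -0.05 (without Old PF4 replicate 5) to 0.02 (without Old PF4 replicate 8), and was 0.03 with the length covariate.

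Beside Id2, its family was measured in full. Of 7 Id and E-protein genes, 2 were higher and none lower, with a median of 0.06. The median was 0.01 with the length covariate and ran from 0.02 (without Old Veh replicate 12) to 0.12 (without Old Veh replicate 10), and 1 member was higher without Old PF4 replicate 7. Id4 had a log2 fold change of 0.12 (unadjusted p = 0.0156), Id3 one of 0.06 (p = 0.497) and Id1, counted at 3.06 to 7.65 CPM, one of 0.05 (p = 0.762). Id4 ran from 119 to 157 CPM in Old PF4 (median 138) and from 118 to 142 in Old Veh (median 128).

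Transcripts tied to the treatment itself were close to the limit of detection or did not pass the adjusted test. Pf4 mRNA had 1 to 15 reads per Old library, that is 0.14 to 1.25 CPM in Old PF4 (median 0.49) and 0.08 to 1.12 in Old Veh (median 0.43), with a log2 fold change of 0.44 (SE 0.39, edgeR adjusted p = 0.96). Recombinant protein would not appear in these counts. Cxcr3, a receptor of PF4, had at most 4 reads in any Old library and none in 16 of the 22, and was not tested. Kl, which encodes klotho and is rich in choroid plexus, spread from 17.1 to 161 CPM in Old PF4 (median 23.7) and from 18.3 to 220 in Old Veh (median 27.6), with a log2 fold change of 0.03 (SE 0.49, edgeR adjusted p = 1.00). A list of platelet chemokines, PF4 receptors and other brain chemokine genes had 17 tested members. None of these was higher and 1 was lower, with a median of -0.02. With the length covariate 1 was higher and none lower, with a median of 0.02.

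The remaining 61 lists with a tested member did not reach the rule. Medians ran from -0.11 to 0.19 over the 59 of them with at least 5 tested members. Mature oligodendrocyte and myelin genes had none of 24 past the looser rule and a median of 0.07, but 3 higher members without Old PF4 replicate 8 and a median of 0.03 without Old Veh replicate 5. Astrocyte identity genes had 1 higher and 2 lower of 22 with a median of 0.02, and endothelial genes had 2 lower of 28 with a median of -0.05. Without the libraries under 5000000 counts the endothelial list had 2 higher, 1 lower and a median of -0.0041, and it had 5 lower members without Old PF4 replicate 2. Of 15 markers of T, B and natural killer cells, 1 had enough reads to be tested. Zfp zinc finger genes were lower in 16 of 353 (4.53%) and higher in 4 (1.13%), with a median of -0.02. Of these genes 12 were lower and 9 higher with the length covariate, and 10 were lower without Old Veh replicate 8. Without Old PF4 replicate 8 their median was -0.04, with 20 lower. Plakins, ankyrins and spectrins, the family that includes Plec, were lower in 2 of 22 and higher in 1, with a median of -0.07. In that family 5 were lower without Old Veh replicate 11. With the length covariate 4 were lower and 1 higher, with a median of -0.02.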

How the data were processed

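Whole hippocampi were profiled by RNA-seq from full-length cDNA made by the Smart-Seq2 method, with unstranded libraries. The authors trimmed and aligned the reads to GRCm38 (Trim Galore 0.3.7, STAR 2.5.3a, and DESeq2 are named in the submitters' processing notes), left out samples under 1000000 reads, and deposited counts per gene, as whole numbers that were not normalized. The counting tool and its annotation are not given in the sources used here. Groups followed the sample titles, and separate titles were taken as separate mice. The edgeR p-values set each difference against a spread between libraries that was estimated over all 4 groups.

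Counts of all 47 libraries were fitted with edgeR 4.0.16 (R 4.3.3) as 4 groups after filterByExpr and TMM scaling, with quasi-likelihood tests and Benjamini-Hochberg adjustment over 17778 genes. Genes with an adjusted p below 0.05 were called. Standard errors are the absolute log2 fold change over the square root of F. CPM, counts scaled to 1000000 per library, are TMM scaled. Library measures were compared by two-sided permutation tests with 100000 resamples. DESeq2 1.42.0, its size factors in edgeR, other count filters, covariates (length index, choroid plexus score, age), the Old libraries alone, a replicate block, and the omission of shallow or single libraries were tried as alternatives. The fits were tested on simulated data.

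The members and gene lists were chosen with earlier results of these data known. Genes were named when called, when among the 30 smallest p, or when among the 4 smallest p of a list with at least 3 members in 1 direction at 2 times the share over all genes, together with Pf4, Kl, Cxcr3, defining markers and family or promoter examples chosen later. Of 35486 genes in the table, 35047 matched GENCODE M21 by symbol. Promoter windows came from RefSeq (GRCm38.p6). Several genes and a list that met these rules are not reported here. All columns were used, and no 2 libraries held identical values.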

Additional observations from a re-analysis of the deposited data

Results flagged for a closer look

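Values were looked at again where 1 of the 10 Old PF4 libraries lay far from the other 9 (its gap to the nearest, over the whole range, was past the critical value of Dixon's test), which chance alone meets in about 1 in 20 groups. The groups of over 10 libraries were not examined in this way, and 20 of 130 values stood apart so. Old PF4 replicate 6 had the highest total count, 21112908, against 12380047 at most in the others.

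Old PF4 replicate 8 stood apart most often. Its length index was -0.23, and its mean score was 0.40 for proteasome subunits, 0.15 for translation factors and -0.0876 for chromatin modifiers. In the same library the log2 CPM were low for Kalrn (8.10), Hectd4 (7.04), Rere (6.02), Camk2a (10.34) and Kat6b (5.45), and high for Psmc1 (7.61), Psma7 (7.53) and P2ry12 (6.53). No gene was called without it. The cause was not tested.

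Single values set other replicates apart. Replicate 9 had the lowest interneuron score (-0.13). Hivep2 was lowest in replicate 7 (7.23) and Akap10 in replicate 3 (4.55). Replicate 11 had the highest values of Retreg1 (6.05), Rpl14 (5.96) and Igf2r (4.79), and replicate 1, the shallowest Old PF4 library, the highest of Prox1 (7.12), all as log2 CPM.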

How the results depend on the processing

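The number of genes called in Old mice was 6 as reported, 24 by DESeq2, 10 with the choroid plexus score as a covariate, and 0 with the length index as a covariate, with the Old libraries alone or without the libraries under 5000000 counts. With the Old libraries alone the edgeR adjusted p of the 6 lay between 0.0972 and 0.231. With age in months added as a covariate to that fit, 4 genes were called, 3 of them among the 6. Leaving out 1 Old library at a time gave 0 to 20. All 6 genes kept their sign in each of these fits, and the 6 were among the 24 of DESeq2. The replicate numbers that both Old groups hold did not pair the libraries, with correlations of same-numbered libraries from -0.26 to 0.32 and 2 of 10 closest to their own number, and a fit with the replicate number as a block called 0 genes, as did the same 20 libraries without it. With no count filter, 870 genes were higher and 982 lower at an unadjusted p below 0.05, and 1 gene was called for the difference between ages. Leaving out 1 library gave 10 to 24 lists in place of 19. Without the libraries under 5000000 counts the difference of mean total count (Old PF4 minus Old Veh) turned to -390740 and that of genes detected to -30.6. Small values turned sign: with the length covariate P2ry12 was -0.0050, Hspa5 -0.0082 and Hsp90b1 -0.013, and Kl was -0.15 with the choroid covariate. Over single omissions the log2 fold changes ran from -0.27 to 0.51 for Kl, -0.0084 to 0.12 for Id1, -0.0024 to 0.080 for P2ry12, -0.024 to 0.097 for Hspa5 and -0.013 to 0.043 for Hsp90b1. The causes were not tested.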
